A study of Mus musculus with 23 samples.

Results

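The 90 genes described here are named for the proteins of the cytosolic ribosome. They were taken from the 18876 genes of the count table by symbol, as those starting with Rpl or Rps and a digit together with Rplp0, Rplp1, Rplp2 and Rpsa, without symbols holding -ps and without the Rps6k, Rps19bp and Rpl7l families. Of the 90, 53 carry names of the large subunit and 37 of the small subunit. A set of 76 (45 large, 31 small) are the canonical genes, and the other 14 are paralogs or retrogene copies of one of them, of which 6 (Rpl6l, Rpl32l, Rpl37rt, Rps12l1, Rps3a2 and Rps3a3) are annotated as processed pseudogenes with no coding sequence. Rpl24 was not analysed here. The libraries were made from CD11b+ cells of the hippocampus of female mice aged 15 to 18 months. All mice carried floxed Slc11a2 alleles (fl/fl) and 1 copy of Cx3cr1 Cre-ERT2, in which the promoter of a microglial and macrophage chemokine receptor drives a Cre recombinase that tamoxifen switches on, on a mixed 129S and C57BL/6J background. Mice were hemizygous for APP/PS1 (Tg(APPswe,PSEN1dE9)85Dbo), a transgene pair that leads to amyloid deposition, or were wild-type (WT) littermates. Mice labelled KD, for knockdown of the iron importer gene Slc11a2, were gavaged with tamoxifen when 5 to 6 months old (4 mg daily, 5 days). Control mice received 200 µL corn oil, so that tamoxifen and the knockdown cannot be told apart. There were 6 Control WT, 6 Control APP/PS1, 5 KD WT and 5 KD APP/PS1 libraries, each a biological replicate. A further Control APP/PS1 library, 0010, was left out, taken to be the sample of that group that the study removed. With it kept, 20 members in place of 10 were called between the Control genotypes, against 6.59% of all genes. The count of Slc11a2 showed no clear loss under the KD label, the means in WT mice differing by less than the SDs: it was 36.8 ± 4.72 CPM (counts scaled to a common library total; SD, n = 6) in Control WT and 35.3 ± 3.15 CPM (n = 5) in KD WT, and 42.8 ± 4.08 CPM in the Control APP/PS1 group against 51.3 ± 8.06 CPM in KD APP/PS1. This count sums all exons and cannot show the loss of the floxed ones alone. The study reported loss of expression over part of the gene, by RT-qPCR in isolated microglia and in the RNA-seq reads. That evidence was not examined here, and KD below means the libraries labelled KD.

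The ribosome joins a large subunit, which holds the peptidyl transferase centre and the exit tunnel, to a small subunit, which decodes the mRNA. Each canonical ribosomal protein is present about once per ribosome, except the acidic stalk proteins Rplp1 and Rplp2, which sit in several copies on Rplp0 and bring translation factors to the ribosome. The mRNAs of these genes are known to be kept in step. In mammals most of them begin with a 5' terminal oligopyrimidine (TOP) tract, a C followed by an uninterrupted run of pyrimidines, through which mTOR and the RNA-binding protein Larp1 govern their translation. Some canonical proteins have paralogs, such as Rpl22l1 for Rpl22, Rps27l for Rps27 and Rpl39l for Rpl39, and the mouse genome holds many retrocopies of ribosomal protein mRNAs, a few of which have gene symbols of their own.

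The start of transcription is the feature that these genes are known to share, so the promoter windows of the members were read from RefSeq (GRCm38.p6). A window was held for 64 of the 90 members. A C followed by at least 4 letters that are C or T, beginning within 3 bases of the annotated start, on the strand of the gene, was found in 27 of them (42.2%), against 3651 of 27025 genes with a window (13.5%). The letters CCGGAAG, on either strand within the 250 bases before and 50 after the start, were in 26 of the 64 (40.6%, against 9.9% of all windows), and CTCGCGAG in 10.9% against 1.0%, whereas TATAAA was in 12.5% against 15.7%. The 30 bases around the start (10 before, 20 from it on) are given for 6 members that show the run and that recur below, and for Rpsa and Rpl4, which do not show it. The run is in capitals.
Rps27, chr3:90213629-90213658, minus strand: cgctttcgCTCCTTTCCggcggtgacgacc
Rps27rt, chr9:114982720-114982749, minus strand: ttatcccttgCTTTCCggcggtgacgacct
Rps27l, chr9:66946076-66946105, plus strand: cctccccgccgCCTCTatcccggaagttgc
Rpl22l1, chr3:28805498-28805527, plus strand: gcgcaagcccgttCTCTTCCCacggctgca
Rpl7a, chr2:26910797-26910826, plus strand: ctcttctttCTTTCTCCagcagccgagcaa
Rplp2, chr7:141447641-141447670, plus strand: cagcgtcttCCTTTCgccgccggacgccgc
Rpsa, chr9:120127756-120127785, plus strand: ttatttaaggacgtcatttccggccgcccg
Rpl4, chr9:64173377-64173406, plus strand: tttcctgtgggagcagccgggtagagagga
Rps27 and the retrogene Rps27rt shared an unbroken stretch of 19 bases in these windows, ctttccggcggtgacgacc, while Rps27l began with other letters. A window without a match says only that these letters are not near the annotated start.

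The number in a library's title runs from 1 to 23, and the groups follow it. Libraries 1 to 4 are KD (3 WT, 1 APP/PS1), the Control libraries are 5 to 17, and 18 to 23 are KD again (2 WT, 4 APP/PS1). The runs are numbers in titles and not a recorded batch, and run and knockdown cannot be fully told apart, so the runs are named beside each comparison. Libraries held 31128643 to 54872491 counts. The summed level of 10 microglial markers was 46509 to 52929 CPM in Control WT, 47024 to 50715 in KD WT, 34549 to 38571 in Control APP/PS1 and 34987 to 39758 in KD APP/PS1, and no marker of the 10 was at 0 in any library. That of 12 choroid plexus markers was 2176 and 1094 CPM in Control WT libraries 0012 and 0015 and 73.0 to 835 CPM in libraries 18 to 23, and at most 54.1 CPM elsewhere, with 11 of the 12 at 0 in some library. The sums of some other lists differed by genotype. That of 6 border macrophage markers was 206 to 423 CPM in Control WT and 72.3 to 175 in Control APP/PS1, and 195 to 559 in KD WT and 105 to 171 in KD APP/PS1, and that of 5 endothelial markers 139 to 302 and 87.5 to 112, and 125 to 283 and 77.1 to 119.6 CPM, the genotypes not overlapping in either treatment. Oligodendrocyte markers (6) had medians of 1347 CPM in Control WT, 612 in Control APP/PS1, 2362 in KD WT and 698 in KD APP/PS1, and neutrophil markers (6) of 152, 51.4, 117 and 57.3 CPM, with overlap. Astrocyte markers (6) were lower by median in the KD groups, at 168 CPM in KD WT and 96.9 in KD APP/PS1 against 566 in Control WT and 411 in Control APP/PS1, with overlapping ranges. Of these, Lyve1, Aqp4, Gja1 and Ly6g were at 0 in some library. The part of these markers in the results was not tested.

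Ribosomal protein genes took up a mean of 10.7% of all counts in Control WT microglia, with higher means in both APP/PS1 groups and the widest spread in both KD groups. The share of a library's counts on the 90 members was 10.7, 10.1, 10.9, 10.3, 11.8 and 10.8% in the 6 Control WT libraries. It was 9.50, 12.8, 15.7, 14.4, 14.6 and 13.7% in the 6 Control APP/PS1 libraries, so that 5 of these lay above all of Control WT and library 0005 lay below. In KD WT it was 10.2, 8.61, 7.78, 12.5 and 17.3% (libraries 0001, 0002, 0003, 0019 and 0022), and in KD APP/PS1 11.6, 15.3, 18.5, 22.4 and 18.4% (0004, 0018, 0020, 0021 and 0023). The group means were 10.7 ± 0.599% (SD, n = 6), 13.4 ± 2.16% (n = 6), 11.3 ± 3.83% (n = 5) and 17.2 ± 4.04% (n = 5) in the same order. Within each KD genotype the libraries numbered 18 to 23 were all above those numbered 1 to 4. In bulk RNA, fewer cells of a type and less RNA per cell cannot be told apart. Mitochondrial transcripts made up 0.990% to 2.73% of the counts, and taking them out of the total changed the group differences by less than 1 SD of the libraries. The deposited normalized table divides all counts of a library by 1 factor. Shares taken from it could hardly differ and are no test of these differences.

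**Figure D1:**
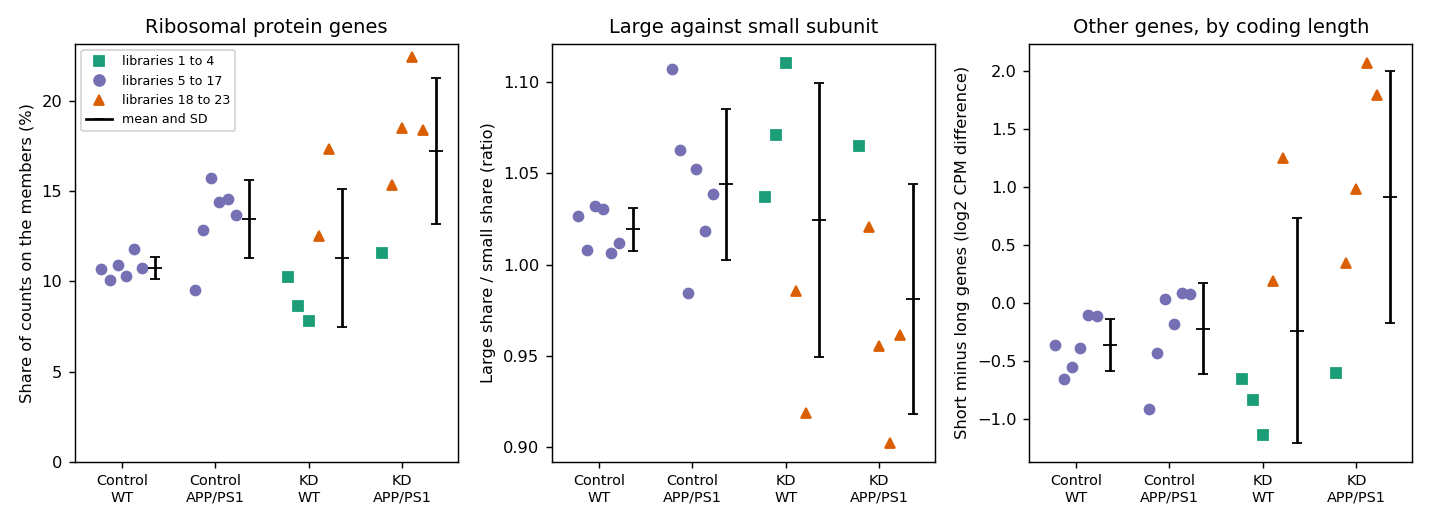
The percentage of each library's counts that fell on the 90 ribosomal protein genes (left), the ratio of large-subunit to small-subunit shares (middle) and the log2 CPM difference between short and long genes that are not members (right), by group. Each point is 1 library marked by its run of title numbers, and bars are group means with SDs. The 6 Control WT libraries lie between 10.1% and 11.8%, and library 0021 reaches 22.4% with the lowest ratio (0.902) and the widest short-to-long difference (2.07).

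Large and small subunits kept close to even shares. The ratio of counts on large-subunit members to counts on small-subunit members was 1.02 ± 0.0119 in Control WT, 1.04 ± 0.0416 in Control APP/PS1, 1.02 ± 0.0750 in KD WT and 0.981 ± 0.0630 in KD APP/PS1. The ranges of all 4 groups overlapped, and no test was made of a sum over members. By run the ratio was 1.04 to 1.11 in libraries 1 to 4, 0.984 to 1.11 in the Control libraries 5 to 17, which overlapped both KD runs, and 0.902 to 1.02 in libraries 18 to 23. The median coding length was 480 bases for the canonical large-subunit members and 453 bases for the small-subunit ones.

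In Control mice, the median log2 fold change of ribosomal protein genes in APP/PS1 against WT microglia was 0.41, and 10 of the 90 rose. The edgeR quasi-likelihood test, with adjustment over all 18759 genes tested, called 5.99% of these genes higher and 4.48% lower, against 10 members higher (8 large, 2 small) and 0 lower. At an unadjusted p under 0.05 there were 36 members higher, against 13.3% of all genes, and 0 lower. The log2 fold change was above 0 in 86 of the 90 members and in all 76 canonical ones, where it ran from 0.082 in Rps29 to 0.78 in Rpl41, and the median over all genes was -0.022.

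The 10 genes called between the Control groups lie in several regions of the ribosome. Rpsa, the small-subunit protein known also as the laminin receptor precursor, had a lowest, median and highest value of 1130.5, 1291 and 1573 CPM in Control WT and 1753, 2156 and 2457 CPM in Control APP/PS1, without overlap. It was higher by 0.70 ± 0.16 (SE, adjusted p = 0.00449). Rps2, a small-subunit protein near the mRNA entry site, was higher by 0.66 ± 0.17 (SE, adjusted p = 0.0109). Rpl10a, part of the L1 stalk beside the exit site, had 593, 608 and 712 CPM in Control WT and 755, 1074 and 1113 CPM in Control APP/PS1, again apart, with a log2 fold change of 0.70 ± 0.16 (SE, adjusted p = 0.00605). Rpl41, the shortest member with 75 coding bases, had 540.1, 591 and 724 CPM against 730.1, 1096 and 1224 CPM and a log2 fold change of 0.78 ± 0.20 (SE, adjusted p = 0.0140). Rpl5, which carries the 5S ribosomal RNA into the large subunit, was higher by 0.46 (adjusted p = 0.0392), and Rpl4, whose loop lines the exit tunnel, by 0.40 (adjusted p = 0.0237). The large-subunit proteins Rpl6, Rpl21, Rpl19 and Rpl7a rose by 0.40, 0.46, 0.52 and 0.55, with adjusted p-values of 0.0150, 0.0111, 0.0457 and 0.0172. Some stretches of 50 exonic bases also occur in another annotated gene, as a copy or through overlap on either strand. They made up 85.9% of Rpsa, 85.2% of Rps2, 87.4% of Rpl10a, 87.3% of Rpl5, 91.8% of Rpl21 and 86.4% of Rpl7a. In Rpl5, 51.4% of the exonic bases lie inside other genes, such as Dipk1a. The counts of these genes may be split with or lost to other genes. The reads of the study were longer than 50 bases, so some of them may still have been placed. Every Control APP/PS1 library was above every Control WT library in 7 members (Rpl5, Rpl6, Rpl21, Rpl4, Rpsa, Rpl41 and Rpl10a), against 5.33% of all genes.

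The canonical members outside that list also had log2 fold changes above 0 and did not pass the test. The stalk proteins Rplp0, Rplp1 and Rplp2 had log2 fold changes of 0.37, 0.40 and 0.43, with adjusted p-values of 0.466, 0.284 and 0.308. Rps14, one of the most abundant members, had 3532, 3773 and 4565 CPM in Control WT and 3492, 5708 and 6788 CPM in Control APP/PS1, and its log2 fold change of 0.49 ± 0.27 (SE, adjusted p = 0.281) did not pass the test. Large-subunit members had a median of 0.42 and small-subunit members of 0.36, and over the canonical members alone 0.42 and 0.40. The median of canonical members was 0.42 up to 300 coding bases and 0.40 above 600. The count depended on which libraries shared the fit. It was 3 without libraries 0012 and 0015, 18 without 0022, and 56 when the Control groups were fitted alone, where 4.23%, 6.65% and 11.3% of all genes were called higher.

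**Figure D2:**
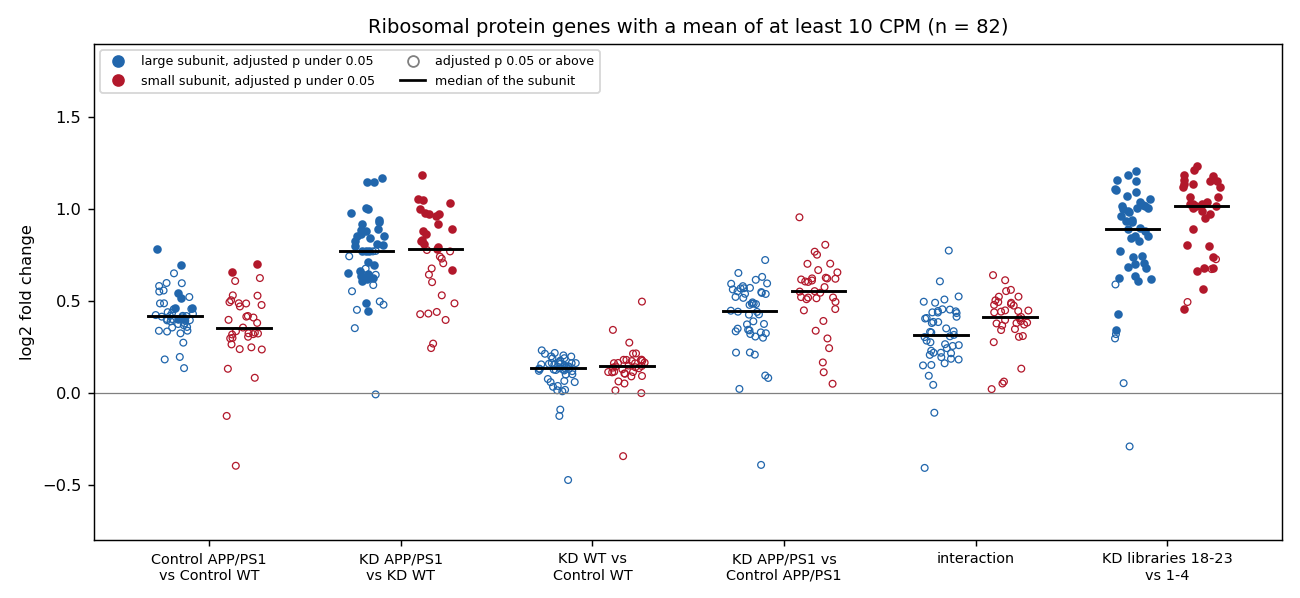
Log2 fold change (vertical axis) of the 82 ribosomal protein genes with a mean of at least 10 CPM in the 6 comparisons, each point being 1 gene, large-subunit members in blue and small-subunit members in red, filled where the adjusted p is under 0.05 in the edgeR test over all genes, with lines at the subunit medians. Filled points appear in both comparisons of APP/PS1 with WT and in that of the runs, and Rpl4 is the low large-subunit point at -0.39 in KD APP/PS1 against Control APP/PS1.

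Among KD mice the same comparison of genotypes had 53 of 90 members higher and 0 lower. The median was 0.77 over the members and -0.067 over all genes, and 86 members were above 0. The test called 9.77% of all genes higher and 6.41% lower. With the KD groups fitted alone, 6 members were called against 4.33% of all genes. Of the members, 34 of 53 large and 19 of 37 small ones were called, with medians of 0.77 and 0.78. Rps2 had 1232, 1009.7, 954, 1492 and 2020.4 CPM in the KD WT libraries and 1966, 2589, 2972, 3396 and 2807 CPM in the KD APP/PS1 libraries, and was higher by 1.03 ± 0.18 (SE, adjusted p = 0.000436). Rpsa had 1260.2, 1067, 991, 1568 and 2024 CPM against 1869, 2327, 2859, 3302 and 3229.9 CPM, a log2 fold change of 0.98 ± 0.17 (SE, adjusted p = 0.000475). In both genes the KD WT library 0022 was the highest of its group and library 0004 the lowest of KD APP/PS1. Rplp0, the base of the stalk, was higher by 1.15 ± 0.31 (SE, adjusted p = 0.0126) and Rpl41 by 1.17 ± 0.23 (SE, adjusted p = 0.00110). Rpl4 did not pass the test, at -0.0085 ± 0.12 (SE, adjusted p = 0.978). Every KD APP/PS1 library was above every KD WT library in 3 members (Rplp0, Rpl3 and Rps10), against 4.18% of all genes, and Rps10 is covered by few reads.

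The KD groups hold unlike numbers of early and late libraries, so the genotypes were also compared by run. In libraries 18 to 23 (4 APP/PS1, 2 WT) the median of the members was 0.42, 87 of 90 were above 0, and 4 passed the test (Rpsa, Rpl41, Rps2 and Rpl10a) against 2.99% of all genes. Their log2 fold changes were 0.71, 0.83, 0.74 and 0.60, and all 4 were also called between the Control groups. The count of 4 is near the share of all genes and rests on 2 WT libraries. In libraries 1 to 4 (1 APP/PS1, 3 WT) the median was 0.45, 83 were above 0 and 0 passed the test, against 1.32% of all genes, with the lone APP/PS1 library assumed to vary like the other groups. The medians within the runs thus lay near the 0.41 of the Control groups and below the 0.77 of the pooled comparison. With a term for libraries 18 to 23 in the fit, 15 members were called against 5.98% of all genes. Leaving out 1 library at a time gave 15 to 78 calls, with 15 without 0021, 34 without 0020, and 24, 18 and 19 without 0001, 0002 and 0003. In these fits 6.68% to 13.2% of all genes were called higher, and 6.68% without 0021.

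KD against Control gave no call by edgeR in either genotype. In WT mice edgeR called 0 members and 0% of all genes higher. At an unadjusted p under 0.05 there was 1 member, Rpl3l, against 3.06% of all genes, and DESeq2 called 0 members against 0.032%. The median of the members was 0.14. This median hides opposite runs: KD WT libraries 1 to 3 lay below Control WT, with a median of -0.32 and 6 of 90 members above 0, whereas KD WT libraries 19 and 22 lay above, with a median of 0.64 and 84 above 0. Of the members 0 passed in either, against 0% and 0.0373% of all genes. Without library 0022 the median of the whole comparison was -0.16. In APP/PS1 mice edgeR called 0 members and 0% of all genes, but 53 members were higher at an unadjusted p under 0.05 against 10.8% of all genes, and the median was 0.52. Short genes that are not members also had the higher medians in this comparison, as given below. DESeq2 called 4 higher, Rps27rt, Rpl27, Rpl15 and Rps14, against 2.39% of all genes, and 1 lower, Rpl4, against 0.698%. In 0 members was every KD APP/PS1 library above every Control APP/PS1 library, against 0.458% of all genes. KD APP/PS1 libraries 18 to 23 had a median of 0.66 against Control APP/PS1, with 67 members higher and 1 lower against 10.2% of all genes higher and 12.3% lower, while library 0004 had a median of -0.28, with 0 called against 0.0107%, a lone library assumed to vary like the other groups. Without library 0004 the pooled comparison had 44 members higher against 7.34% of all genes. The interaction of knockdown and APP/PS1 had a median of 0.37, 0 calls against 0% of all genes, 2 members higher at an unadjusted p under 0.05 against 4.86%, and 0 by DESeq2 against 0.096%. Leaving out 1 library at a time moved this median between 0.19 and 0.66. Without libraries 1 to 4 it was below 0. The genotype shifts of KD and Control mice were thus not shown to differ.

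These genes also differed between the runs of KD libraries. Within genotype, 75 of 90 members (43 large, 32 small) were higher in libraries 18 to 23 than in 1 to 4 and 0 were lower, against 11.3% of all genes higher and 12.7% lower, and the median was 0.95. Split by genotype, 71 members were higher in KD WT (libraries 0019 and 0022 against 0001 to 0003, background 6.33%) and 2 in KD APP/PS1 against the single library 0004, again assumed to vary like the other groups (background 0.304%), with medians of 0.95 and 0.96. Rps14, a protein of the small-subunit platform, rose most among the canonical members, from 3609, 2797 and 2308 CPM in KD WT libraries 0001 to 0003 to 4712 and 9024 CPM in 0019 and 0022, and from 4472 CPM in KD APP/PS1 library 0004 to 6724, 9997, 15563 and 9666 CPM, a log2 fold change of 1.24 ± 0.22 (SE, adjusted p = 0.000566). Rpl34 and Rps21 were higher by 1.21 and 1.21. Rpl4, Rpl29 and Rpl3 did not pass the test, with -0.29 ± 0.12 (SE, adjusted p = 0.0727), 0.053 ± 0.48 (SE, adjusted p = 0.961) and 0.30 ± 0.19 (SE, adjusted p = 0.304).

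Short members had the higher medians between the runs, and so had short genes that are not members. The median of the canonical members was 1.09 up to 300 coding bases, 1.02 above 300 and up to 450, 0.83 above 450 and up to 600 and 0.68 above 600. The small-subunit median was above the large-subunit one (1.02 against 0.89), also among members of up to 450 coding bases (1.12 against 1.02) and longer ones (0.89 against 0.69), without a test. Among genes that are not members, the median was 0.61 for the 830 with up to 500 coding bases and -1.07 for the 423 with more than 4000. The gap between these short and long genes, per library relative to the mean of all libraries, ran from -1.14 in library 0003 to 2.07 in library 0021 on the log2 scale, and was -0.91 to 0.087 among Control libraries. The same gap between groups was small in the Control genotypes (0.18 for short and 0.046 for long genes) and larger in KD APP/PS1 against KD WT (0.53 and -0.57). It was of similar width in KD APP/PS1 against Control APP/PS1 (0.44 and -0.63) and in the interaction (0.39 and -0.59). In KD APP/PS1 against Control APP/PS1 the median of the canonical members was 0.62 up to 300 coding bases and 0.32 above 600. When each library was corrected for coding length and GC content, the medians of the members were 0.24 between the Control genotypes, 0.31 between the KD genotypes and 0.42 between the runs, with 19, 27 and 60 members higher against 6.43%, 7.77% and 7.06% of all genes.

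**Figure D3:**
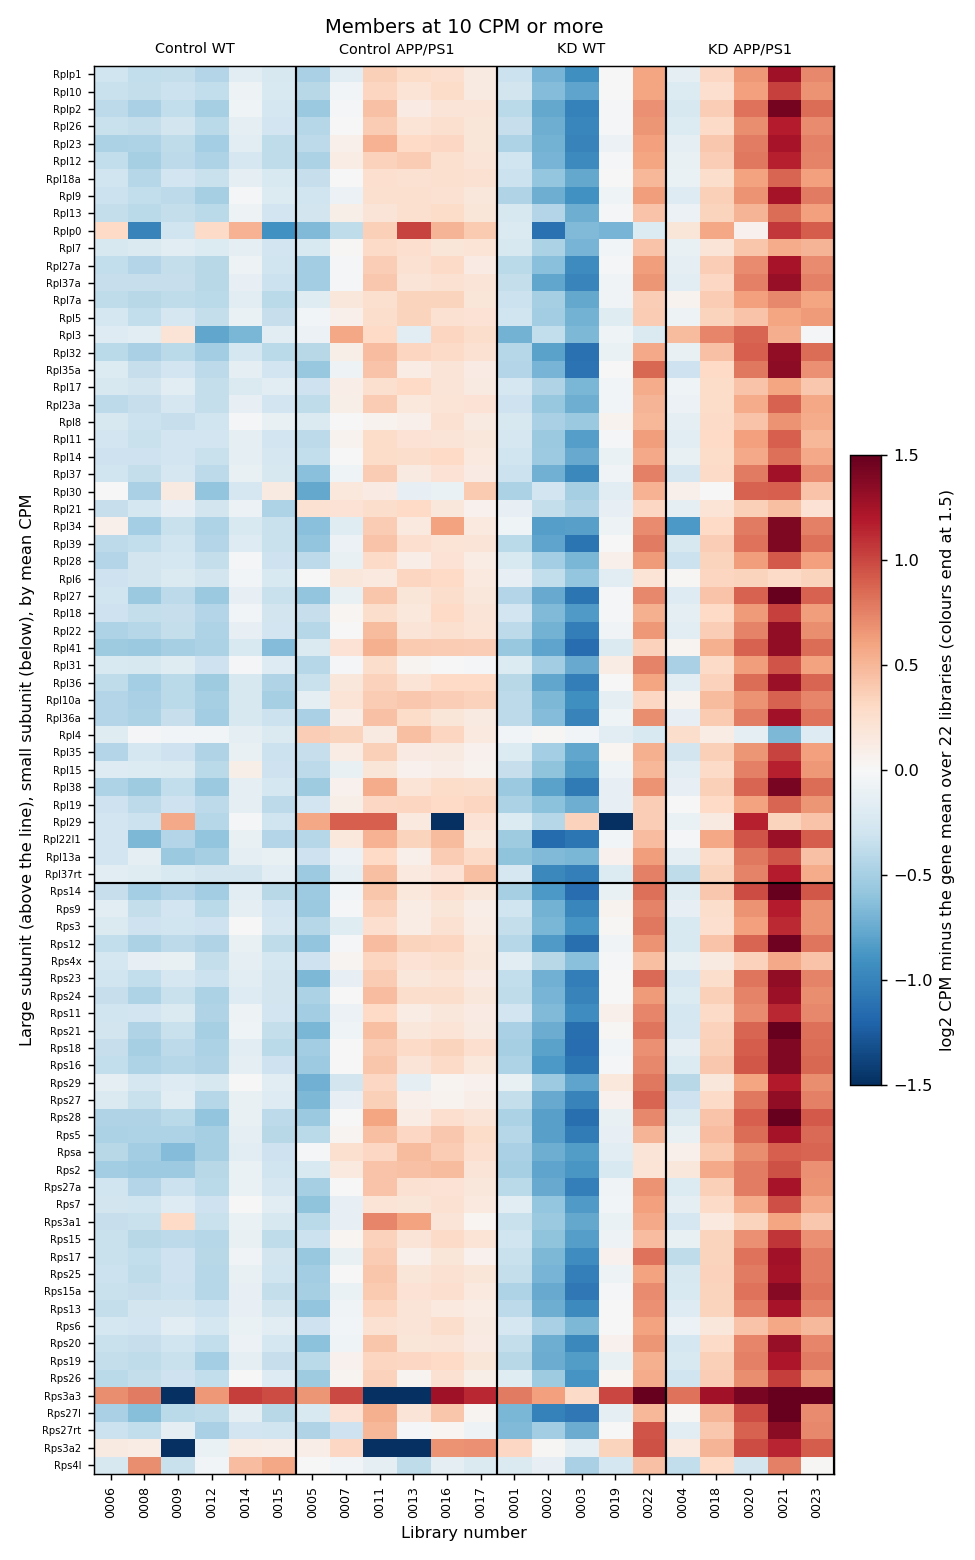
Log2 CPM of 81 of the 82 ribosomal protein genes with a mean of at least 10 CPM (rows, large subunit above the line) in each of 22 libraries (columns, by group and number), minus the gene's mean over the libraries, with red above and blue below the mean. Most of a column shares a colour, library 0021 being the reddest and 0003 the bluest, while the rows of Rplp0, Rpl3, Rpl4, Rpl29, Rps3a2 and Rps3a3 break the columns.

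How closely the members moved together was measured for the 75 canonical members with a mean of at least 10 CPM. The median of their pooled within-group SD of log2 CPM was 0.41. After the median of the members in the same library was taken away it was 0.11, and 69 of the 75 were under 0.25. The 4 over 0.35 were Rpl29 (0.87), Rpl4 (0.50), Rplp0 (0.47) and Rpl3 (0.42), all of the large subunit.

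Rpl29, a basic large-subunit protein also known for binding heparin, was at 79.5 CPM in Control APP/PS1 library 0016 and 76.4 CPM in KD WT library 0019, and between 232 and 702 CPM in the other 20. The 2 libraries share neither genotype, treatment nor run. Rpl4 did not follow the order of the libraries seen in the other members. It was at 766, 796, 764, 699.7 and 671 CPM in KD WT and 940.0, 847, 710.1, 493 and 684 CPM in KD APP/PS1, lowest in library 0021, where the members as a whole were highest. With its 1257 coding bases it is the longest member. KD APP/PS1 libraries 18 to 23 against Control APP/PS1 gave it a log2 fold change of -0.50 (adjusted p = 0.00349 in the edgeR test), the 1 member called lower in that fit, where 12.3% of all genes were. Rplp0 ranged from 834 to 3778 CPM and was spread widely inside the groups, with 904, 1844 and 2601 CPM as lowest, median and highest in Control WT and 1152, 2355 and 3658 CPM in Control APP/PS1. Its partners Rplp1 and Rplp2 stayed with the members, with SDs of 0.090 and 0.14. Rpl3, which reaches into the peptidyl transferase centre, had 890.1, 1345 and 1756 CPM in Control WT and 1371, 1856 and 2292 CPM in Control APP/PS1. Of the exonic stretches of 50 bases, 64.2% in Rplp0, 85.3% in Rpl3, 26.7% in Rpl29 and 12.7% in Rpl4 also occur in another annotated gene, and reads from such stretches could have been counted elsewhere or left out.

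The widest spread of all was in the Rps3a genes. Rps3a1, the canonical gene, lies on chromosome 3 at 86045244 to 86050009 (mm39), and its copies Rps3a2 (chromosome 14, 88360453 to 88361244) and Rps3a3 (chromosome 13, 108807137 to 108807931) are single-exon genes annotated as processed pseudogenes. Rps3a3 was at 1.26 CPM in Control WT library 0009 and at 1.17 and 1.22 CPM in Control APP/PS1 libraries 0011 and 0013. In the other 19 it was at 182 to 494 CPM. Rps3a2 was at 6.69, 9.82 and 8.17 CPM in these 3 and 41.3 to 102 CPM in the others. Rps3a1 was at 2078, 2809.6 and 2569 CPM in the 3 libraries. It made up 99.6% of the sum of the 3 genes in each of them and 80.2% to 82.8% in each of the others. The sum itself was 2086 to 2821 CPM in the 3 libraries, inside the range of 1218 to 3156 CPM of the others. Each of the 3 was nevertheless above every other library of its own group: 2086 CPM in library 0009 against 1619 to 1938 CPM in the other Control WT libraries, and 2821 and 2578 CPM in 0011 and 0013 against 1567 to 2367 CPM in the other Control APP/PS1 libraries. Of the stretches of 50 bases, 71.5% in Rps3a1, 90.2% in Rps3a2 and 65.2% in Rps3a3 occur in another gene, so the 3 counts are uncertain one against the other.

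**Figure D4:**
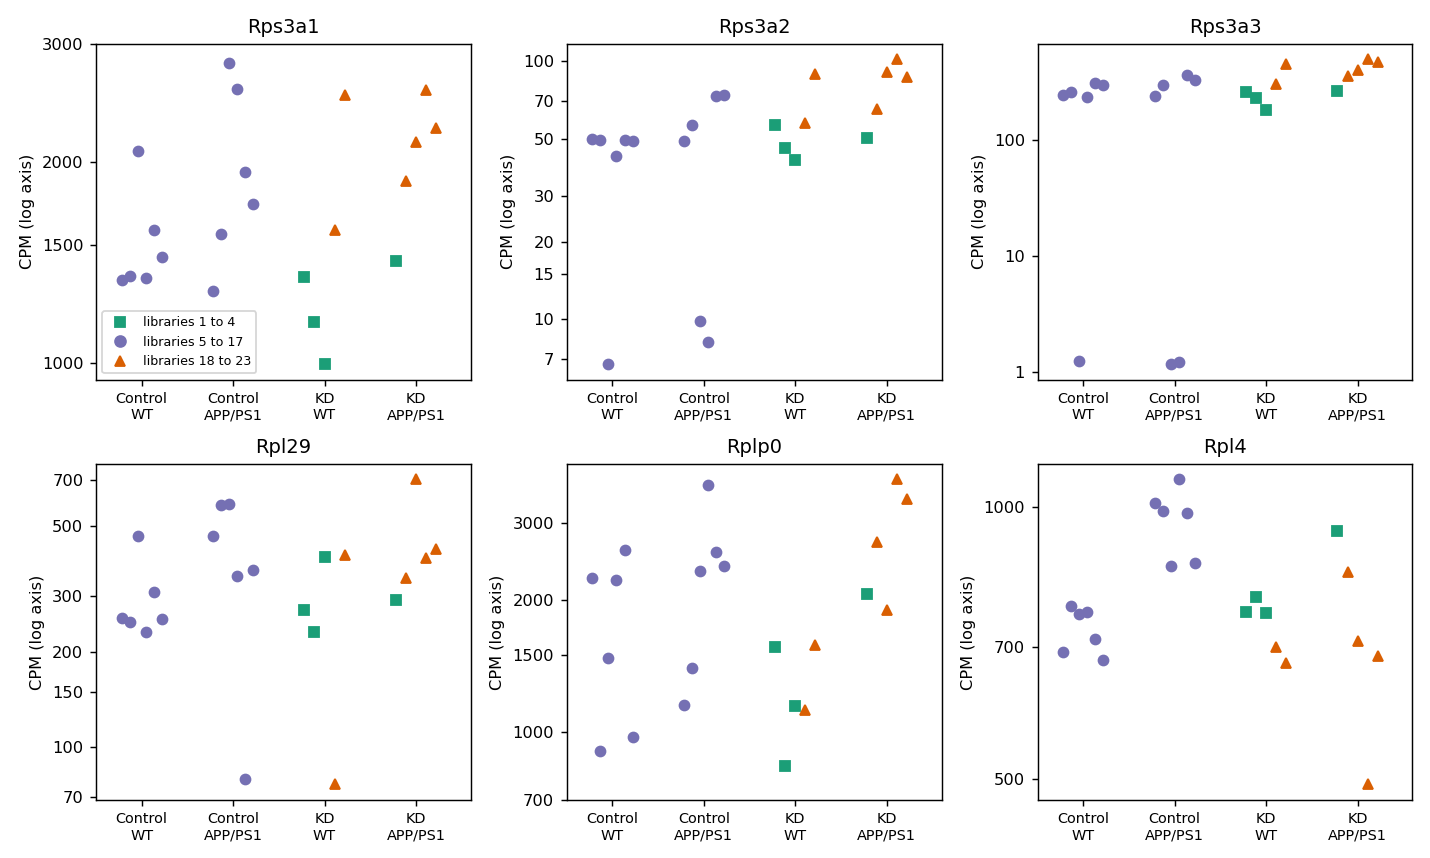
CPM (log axis) of 6 ribosomal protein genes that leave the common pattern, by group, each point being 1 library marked by its run of title numbers. Rps3a2 and Rps3a3 are lowest in libraries 0009, 0011 and 0013, where Rps3a3 is at 1.17 to 1.26 CPM, and Rpl29 is lowest in libraries 0016 and 0019.

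Paralogs were compared with their canonical partner inside each library as the log2 of the ratio of the CPM values, by exact two-sided permutation tests over libraries. There were 44 tests over 11 pairs, 6 had a p under 0.05 and 0 had an adjusted p under 0.05 in this family, where the smallest p the design allows is 0.00216 for 6 against 6, 0.00433 for 5 against 6 and 0.00794 for 5 against 5 libraries. Rps27l, a paralog of Rps27 known as a target of p53, was at 4.21 ± 0.427% of Rps27 per coding length (SD, n = 6) in Control WT, 5.58 ± 0.701% in Control APP/PS1, 3.98 ± 0.316% (n = 5) in KD WT and 5.37 ± 0.498% in KD APP/PS1. The ratio in APP/PS1 differed from that in WT by 0.40 on the log2 scale in Control mice (exact permutation p = 0.00649, adjusted p = 0.175) and by 0.42 in KD mice (exact permutation p = 0.00794, adjusted p = 0.175). In KD mice the genotypes did not overlap, in either run: KD WT libraries 0001, 0002 and 0003 were at 3.76, 3.96 and 4.46% and KD APP/PS1 library 0004 at 5.94%, and KD WT libraries 0019 and 0022 were at 4.08 and 3.65% against 5.56, 5.42, 5.33 and 4.58% in KD APP/PS1 libraries 0018, 0020, 0021 and 0023. Rps27l itself had 52.5, 41.8, 39.9, 76.2 and 120.1 CPM in KD WT and 85.5, 121, 167, 239.7 and 138 CPM in KD APP/PS1, and in the edgeR test it was higher by 1.19 ± 0.26 (SE, adjusted p = 0.00317), where its partner had 0.74 ± 0.28 (SE, adjusted p = 0.0768). Between the Control genotypes it had 0.63 ± 0.24 (SE, adjusted p = 0.0963).

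Rpl22l1, the paralog of the RNA-binding protein Rpl22, was at 14.01 ± 1.47%, 15.7 ± 1.14%, 13.2 ± 1.53% and 16.3 ± 1.14% of Rpl22 per coding length in the same order of groups. The ratio differed by 0.31 between the KD genotypes (exact permutation p = 0.0159, adjusted p = 0.190) and by 0.16 between the Control genotypes (exact permutation p = 0.0563). In the edgeR test Rpl22l1 was higher in KD APP/PS1 than in KD WT by 1.15 ± 0.26 (SE, adjusted p = 0.00421), and Rpl22 by 0.87 ± 0.25 (SE, adjusted p = 0.0220). Of the 50-base stretches of Rpl22l1, 86.5% also occur in other genes. Rps4l, a single-exon relative of Rps4x, had its higher ratio in Control WT. It was at 1.52 ± 0.443% of Rps4x in Control WT and 0.944 ± 0.239% in Control APP/PS1, a difference of -0.66 (exact permutation p = 0.0195, adjusted p = 0.190), and at 1.13 ± 0.154% and 0.999 ± 0.249% in KD WT and KD APP/PS1. Its values in CPM ran from 23.1 to 55.6.

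The retrogene Rps27rt kept to 2.78 ± 0.132%, 2.91 ± 0.3505%, 3.04 ± 0.468% and 3.10 ± 0.151% of Rps27, and 91.1% of its 50-base stretches occur elsewhere. Rpl39l, a paralog of Rpl39 known from testis, was at 0.605 to 16.5 CPM. Rpl3l, known from heart and skeletal muscle, had 0 to 15 counts per library and was at 0 in 18 of the 22. Rpl6l had a ratio to Rpl6 that differed by 0.31 between KD APP/PS1 and Control APP/PS1 (exact permutation p = 0.0216, adjusted p = 0.190). Rpl32l, Rpl37rt and Rps12l1 share all of their 50-base stretches with other genes, and their counts cannot be read as their own.

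**Figure D5:**
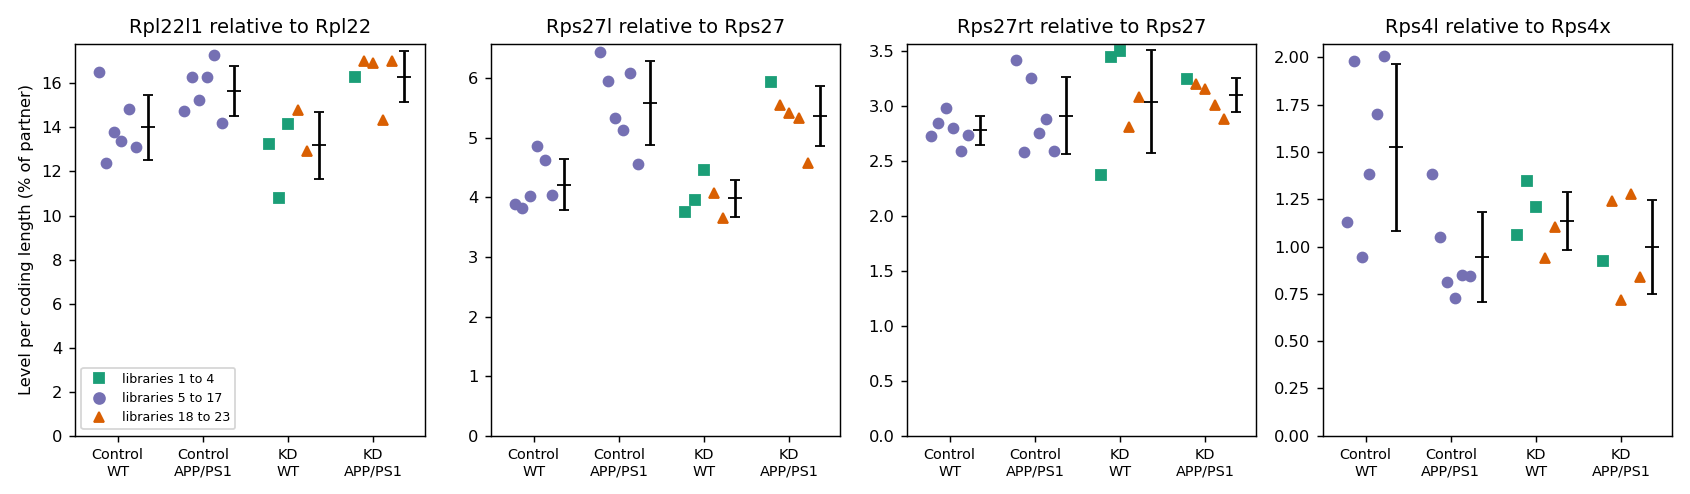
Level of 4 paralogs as a percentage of the canonical partner per coding length, by group, each point being 1 library marked by its run of title numbers, with bars for group means and SDs. Rps27l is at 4.21% of Rps27 in Control WT and 5.58% in Control APP/PS1, and the KD genotypes do not overlap.

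Levels were compared between canonical members only per coding length. The counts cover whole exons with their untranslated parts, so this measure raises genes with a short coding sequence. Rpl41 has 75 coding bases in a transcript of 394, and Rps29 has 168 in 380. The order below may depend on this choice of length. Rplp1 had the highest mean over the 22 libraries, at 16335 CPM per 1000 coding bases, followed by Rps29 (13198), the zinc-finger protein of the small-subunit head, and Rps14 (12521). The next was Rpl41 (12361). Rplp1 was first in each of the 4 groups, but the order of the other 3 by group mean differed by genotype, with Rps29 second in Control WT (11105) and KD WT (12531) and behind both Rps14 and Rpl41 in Control APP/PS1 (11755) and KD APP/PS1 (18107), without a test. The lowest were Rps10 (0.573), Rpl13a (47.9), known also as a part of the interferon-gamma-activated inhibitor of translation, and Rpl4 (634). Rps10 had 0 to 37 counts per library, and 92.4% of its 50-base stretches also occur in other genes, as do 57.4% of those of Rpl13a. Rps10 has too few counts for its log2 fold change to be read.

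Other genes of the translation machinery were described by lists. Their counts of calls are to be read against the shares of all genes called higher and lower, which were 5.99% and 4.48% between the Control genotypes, 9.77% and 6.41% between the KD genotypes, and 11.3% and 12.7% between the runs. Rack1, a scaffold protein on the small subunit, had 0.55 ± 0.20 (SE, adjusted p = 0.0924) between the Control genotypes, which did not pass the edgeR test, and rose by 0.88 ± 0.23 (SE, adjusted p = 0.00959) between the KD genotypes. Fau, which encodes a small-subunit protein fused to a ubiquitin-like protein, had 0.43 ± 0.23 (SE, adjusted p = 0.249) and 0.87 ± 0.25 (SE, adjusted p = 0.0191) in the same comparisons. Of 22 translation factor and other mRNAs known to carry a TOP tract, 13 were higher in Control APP/PS1 than in Control WT and 0 lower, with a median of 0.46. These include the elongation factors Eef1a1, at 0.73 ± 0.093 (SE, adjusted p = 6.70e-06), and Eef2, at 0.56 (adjusted p = 0.00557), the nucleolar chaperone Npm1, at 0.73 (adjusted p = 0.000470), and the histone chaperone Nap1l1, at 0.68 (adjusted p = 0.000171). Between the KD genotypes 14 were higher and 0 lower, with a median of 0.50. In KD against Control the median was 0.047 in WT and 0.11 in APP/PS1 mice, with 0 called, and between the runs 13 were higher and 2 lower, with a median of 0.37.

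The lists of genes that build ribosomes or regulate their mRNAs had medians closer to 0 between the Control genotypes and at or below 0 between the runs. Of 54 ribosome biogenesis genes, 2 were higher and 0 lower between the Control genotypes (median 0.19), 9 higher and 1 lower between the KD genotypes (median 0.051), and 10 higher and 18 lower between the runs (median -0.034). Of 25 regulators of ribosomal protein mRNAs, among them Mtor, Larp1, Myc and Mdm2, 0 passed between the Control genotypes (median -0.014), 2 were higher and 2 lower between the KD genotypes (median -0.18), and 5 higher and 12 lower between the runs (median -0.50). Of 26 other initiation and elongation factors 2 were higher and 1 lower between the Control genotypes, with a median of 0.24. The median log2 fold changes of 23 canonical members with the pyrimidine run at the start and of 33 with a window but no run were 0.40 and 0.44 between the Control genotypes and 0.99 and 0.90 between the runs, described without a test. A missing run may reflect the annotated start alone, so this split cannot separate members with and without a TOP tract.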

How the data were processed

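CD11b+ cells were isolated from the hippocampus after a 30 min digestion with papain and DNase and Percoll separation, and poly(A) RNA was sequenced as paired-end libraries. The authors trimmed the reads with Trim Galore 0.6.7, aligned them to mm39 with STAR and counted them per gene with its gene count option. The deposited table of raw counts was used for all tests. The deposited normalized counts (a signal in which the authors divided the counts by DESeq2 1.36.0 size factors) were used for the shares alone.

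From the counts, edgeR 4.0.16 in R 4.3.3 was run with TMM scaling and the quasi-likelihood test over all genes, with all 4 groups and 22 libraries in 1 fit, keeping the 18759 of 18876 genes that reached 5 counts in 3 or more samples and adjusting p-values by the Benjamini-Hochberg method over these genes (threshold 0.05). SEs are the log2 fold change divided by the root of F. CPM values are scaled by TMM, except shares, marker sums and Slc11a2, which refer to the library total. DESeq2 1.42.0 and limma 3.58.1 (voom) were alternatives. Members come from the symbols in the table, and coordinates, coding lengths and shared stretches of 50 bases from an mm39 annotation that is a later release than the one of the study. Members named with values are the paralogs and their partners, the 3 highest and 3 lowest of each comparison with a mean of at least 10 CPM, the 3 highest and lowest canonical members per coding length, the stalk proteins and Rpsa, and the 5 canonical members farthest from the median between the Control genotypes. Rpl5, Rpl7a, Rpl19, Rps2, Rpl27 and Rpl15 are named because they were called. The members, lists and comparisons were chosen with earlier results of these data known. The tests were tested on simulated data for Control APP/PS1 against Control WT: of 200 of 17786 genes changed by 1.5 on the log2 scale, edgeR recovered 161 with 2 false calls and DESeq2 170 with 35. Some items are not reported here.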

Additional observations from a re-analysis of the deposited data

Results flagged for a closer look

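In groups of 4 to 10 libraries, a value was marked where its gap to the nearest other library took up an unusual part of the group's range by Dixon's test, which chance does in about 1 of 20 groups. Of 140 groups tested over the named members, the shares and the subunit ratio, 9 were marked. Control WT library 0014 lay above its group in Rpl10a (712 CPM), Rpl41 (724 CPM), Rpl6 (1135 CPM) and Rps12 (2963 CPM), and it had the highest member share of that group. Control WT library 0009 lay above its group in Rpl29 (466 CPM) and Rps3a1 (2078 CPM) and below it in Rps3a2 (6.69 CPM) and Rps3a3 (1.26 CPM). KD APP/PS1 library 0004 lay below its group in Rpl6 (1176 CPM). In library 0010, the Control APP/PS1 library left out of the comparisons, members took 23.1% of counts, above the 15.7% of the highest Control library in the comparisons.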

How the results depend on the processing

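Members called higher between the Control genotypes (10) numbered, with the share of all genes called higher in the same fit in parentheses, 0 (2.80%) with an absolute log2 fold change above 1 required, 42 (11.1%) with limma voom, 56 (11.3%) with only the groups compared, 20 (6.59%) with library 0010 kept, 38 (8.42%) with libraries 18 to 23 as a covariate and 19 (6.43%) with offsets for coding length and GC content. Between the KD genotypes (53) the same settings gave 9 (3.91%), 78 (13.2%), 6 (4.33%), 27 (7.82%), 15 (5.98%) and 27 (7.77%), DESeq2 gave 72 (11.7%) and a filter of 10 counts in every sample 67 (17.6%). Between the runs (75) the fold limit gave 37 (1.91%), and voom and that filter each added 1 member lower (15.2% and 23.6% of all genes). In KD APP/PS1 against Control APP/PS1 DESeq2 gave 4 higher (2.39%) and 1 lower (0.698%). Medians moved with the covariate to -0.31 (KD WT against Control WT) and -0.29 (KD APP/PS1 against Control APP/PS1), and with the offsets to 0.31 between the KD genotypes and 0.42 between the runs. With the offsets Rpl35 reversed between the KD genotypes, at -0.016 (adjusted p = 0.944), and Rpl21 between the runs, at -0.039 (adjusted p = 0.851). Alternatives chosen after seeing the data left out libraries. Without 18 to 23, calls were 55 (9.92%) between the Control and 2 (1.49%) between the KD genotypes, and the medians of KD against Control were -0.33 in WT and -0.30 in APP/PS1 mice. Without 1 to 4, calls were 35 (8.36%) and 3 (2.60%), the median between the KD genotypes was 0.39, that of KD WT against Control WT 0.64 and that of the interaction -0.020, and KD APP/PS1 against Control APP/PS1 had 65 members higher (9.21%) and 1 lower (12.7%). Without 0012 and 0015, 3 members (4.23%) were called between the Control genotypes. The causes were not tested.

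Leaving out each library in turn gave 7 to 18 members higher between the Control genotypes, 15 to 78 between the KD genotypes, 71 to 77 higher and 0 to 1 lower between the runs, and 0 to 44 higher and 0 to 1 lower in KD APP/PS1 against Control APP/PS1 (44 without 0004), where 4.87% to 6.65%, 6.68% to 13.2%, 6.35% to 12.0% and 0% to 7.34% of all genes were called higher, and 5.42% to 14.5% (runs) and 0% to 9.07% lower. The medians ran from 0.36 to 0.49, 0.57 to 1.08, 0.78 to 1.10, -0.16 to 0.28 (KD WT against Control WT), 0.32 to 0.66 (KD APP/PS1 against Control APP/PS1) and 0.19 to 0.66 (interaction). No paired analysis was possible because the replicate numbers are library numbers, which no groups share. At 31128643 to 54872491 counts per library, depth limits what can be read from Rps10, Rpl3l and the rarest copies, which had few counts or none in some libraries.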
